A study of Mus musculus with 63 samples.

Results

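Whether a lesion of the entorhinal cortex changed gene expression differently in the dentate gyrus (DG) and in the CA3 area was tested as the interaction of region and lesion in wildtype tissue cultures. For each gene the lesion effect in CA3 (log2 of 3 dp ECL over control, where 3 dp ECL means 3 days after the entorhinal cortex lesion) was subtracted from the lesion effect in DG, so that a positive difference is a higher lesion effect in DG. The comparison used 15 of the 63 libraries of the series and 4 groups: DG control (n = 4), DG 3 dp ECL (n = 6), CA3 control (n = 2) and CA3 3 dp ECL (n = 3). All 15 came from C57BL/6J (Synpo+/+) entorhino-hippocampal slices, cut from mice of either sex at postnatal days 3 to 5 and kept for at least 18 days in vitro. Control cultures were not lesioned. In lesioned cultures the perforant path was cut with a scalpel between the rhinal and the hippocampal fissure, so the slice kept its own glia but had no blood-borne cells or outside inputs. Each library was made from the polyA RNA of 1 area dissected from 1 culture, with no pooling, and no label ties the 2 areas of a culture together.

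Another library labelled wildtype DG 3 dp ECL (replicate 5) was left out because of its Prox1 level. Prox1 encodes the homeodomain factor that defines granule cells, and stood at 12.7 CPM (counts scaled to a common library total) in that library, against 182 to 235 CPM in the other 6 DG 3 dp ECL libraries, 144 to 196 CPM in DG control and 11.2 to 18.4 CPM in the 5 CA3 libraries. These values chose the libraries and are a description. The labels number the libraries of a group as biological replicates and do not say whether the cultures came from separate animals, so p-values measure the spread between cultures. Total counts ranged from 14055930 to 34071797 per library. Summed granule cell markers, with Prox1, were 1071 to 1466 CPM in the 10 DG libraries and 250 to 310 in the 5 CA3 libraries. Those of CA3 pyramidal cells were 1497 to 1757 CPM in CA3 and 629 to 850 CPM in DG. In the left out replicate 5 these sums were 238 and 1630 CPM. The kept libraries thus carried the markers of their areas, but the granule cell sum partly repeats the choice by Prox1. All 6 control libraries were high in Xist, while 2 of 3 CA3 and 3 of 6 DG 3 dp ECL libraries were high in Y-linked genes. The design leaves sex and lesion partly confounded.

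The perforant path carries the main cortical input to the dendrites of granule cells and reaches the distal dendrites of CA3 pyramidal cells, while the mossy fibers of the granule cells end on the proximal dendrites of the CA3 pyramidal cells. After the lesion the cut axons degenerate in both denervated layers. Microglia and astrocytes are known to respond there, clearing axon and myelin debris and taking up its lipids, while surviving neurons adjust their synapses. Since the entorhinal axons take up a larger part of the dendritic field in the DG, the interaction asks which genes answer to the lesion in one area more than in the other.

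Aif1, Abca1 and Ier3 were called, at an edgeR adjusted p under 0.05 and a mean normalised read count over 300. They were 3 of 8248 genes over that limit, or 0.0364% (0.0242% higher and 0.0121% lower in DG). Aif1 (the microglial calcium-binding protein Iba1) and Abca1 (the transporter that loads cellular cholesterol onto apolipoproteins) had a higher lesion effect in DG, and Ier3 (a stress-induced early response gene) a lower one. In total 27567 genes were tested, and the smallest adjusted p was 0.0165. At an unadjusted p under 0.05 the test gave 1983 genes, 7.19% of those tested, of which 1053 were higher (3.82%) and 930 lower (3.37%) in DG. The difference was above 0 in 49.4% of the genes tested and in 2884 of the 8248 genes over the limit. Its median was -0.01 over all genes tested and -0.08 over the genes above the limit, on the log2 scale.

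The 250 bases before the RefSeq start of the 3 called genes are shown because these are the genes whose response differed between the areas. Capitals mark matches to 6 motifs searched on both strands and chosen with the sequences in view: the direct repeat DR4 (read by LXR/RXR), the kappa-B motif GGAANTTCC, the ETS/PU.1 core GAGGAA, the GC box GGGCGG, the hypoxia response core ACGTG and the TATA box TATAAA. The build is GRCm38.p6, and the sequences read 5′ to 3′ on the strand of the gene. The Aif1 sequence lies at chr17:35176053-35176302 (minus strand), that of Abca1 at chr4:53159896-53160145 (minus strand) and that of Ier3 at chr17:35821463-35821712 (plus strand).
Aif1: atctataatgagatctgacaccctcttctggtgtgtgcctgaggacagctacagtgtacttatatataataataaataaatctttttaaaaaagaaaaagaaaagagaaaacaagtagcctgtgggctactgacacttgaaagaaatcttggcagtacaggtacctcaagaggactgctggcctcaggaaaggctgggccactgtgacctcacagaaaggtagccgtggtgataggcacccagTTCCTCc
Abca1: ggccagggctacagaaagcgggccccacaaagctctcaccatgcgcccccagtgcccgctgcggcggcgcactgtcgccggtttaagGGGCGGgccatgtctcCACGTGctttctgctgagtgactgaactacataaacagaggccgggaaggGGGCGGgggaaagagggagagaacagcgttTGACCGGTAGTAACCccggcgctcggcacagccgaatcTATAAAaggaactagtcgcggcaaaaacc
Ier3: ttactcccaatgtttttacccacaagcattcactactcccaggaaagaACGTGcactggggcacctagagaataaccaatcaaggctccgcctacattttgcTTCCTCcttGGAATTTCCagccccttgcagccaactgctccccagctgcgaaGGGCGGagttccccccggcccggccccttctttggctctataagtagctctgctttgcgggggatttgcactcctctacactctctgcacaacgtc
The Aif1 sequence held 1 match, the ETS/PU.1 core at -7 to -2, which occurs in 23.25% of 32851 RefSeq promoter windows of the same length. The Abca1 sequence held the direct repeat at -67 to -53, a motif found in 0.18% of the windows, beside 2 GC boxes, a TATA box at -29 to -24 and the hypoxia core on both strands, whose matches overlap between -147 and -142. The Ier3 sequence held the kappa-B motif at -139 to -131 (0.81% of the windows), the ETS/PU.1 core, a GC box and the hypoxia core at -202 to -198. A match describes the letters and shows no binding. Positions count from the RefSeq start. The GENCODE starts of Aif1 and Ier3 lie inside these windows, and the Aif1 match lies within the GENCODE gene.

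Aif1 (chromosome 17, 35170991 to 35176068, minus strand, protein coding) stood at 940, 924, 904 and 1134 normalised counts in the 4 DG control libraries and between 2553 and 3226 (median 2934) in the 6 DG 3 dp ECL libraries. In CA3 it was 1173 and 1571 in control and 1986, 1468 and 1713 after the lesion. The DG groups did not overlap, whereas in CA3 the lowest of the lesioned libraries lay below the higher control. The lesion effect was 1.60 in DG (edgeR adjusted p = 7.25e-08) and 0.33 in CA3 (edgeR adjusted p = 0.201), on the log2 scale. The difference was 1.27 (SE 0.19, 95% interval 0.88 to 1.66, edgeR adjusted p = 0.0165), a 2.41-fold higher response in DG. Aif1 was also lower in control DG than in control CA3, with no overlap between these libraries. The call was lost without CA3 control 2 (difference 1.04, adjusted p = 0.205), CA3 3 dp ECL 2 (1.17, adjusted p = 0.0844) or DG control 3 (1.24, adjusted p = 0.0717), all by edgeR.

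Abca1 (chromosome 4, 53030787 to 53159895, minus strand, protein coding) had 1812, 1577, 1483 and 1407 normalised counts in DG control and 3584 to 4224 (median 3886) in DG 3 dp ECL. The CA3 libraries gave 1464 and 1359 in control and 1572, 1777 and 1812 after the lesion. Control levels were thus alike in both areas, and the 6 DG 3 dp ECL libraries stood apart from the other 9. The lesion effect was 1.32 in DG (edgeR adjusted p = 7.25e-08) and 0.29 in CA3 (edgeR adjusted p = 0.187). The difference was 1.03 (SE 0.16, 95% interval 0.70 to 1.37, edgeR adjusted p = 0.019), a 2.05-fold higher response in DG. With any 1 library left out it ranged from 0.97 to 1.11, and edgeR called it in 8 of 15 such fits, with adjusted p up to 0.0958 without CA3 3 dp ECL 1. The other 6 libraries whose loss ended the call were both CA3 controls, CA3 3 dp ECL 2, DG 3 dp ECL 3, DG control 3 and DG control 4. Without both DG 3 dp ECL 1 and 3, the 2 libraries high in the choroid plexus transcript Ttr, the difference was 1.05 (edgeR adjusted p = 0.0554).

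Ier3 (chromosome 17, 35821684 to 35822923, plus strand, protein coding) changed in opposite directions. It rose in CA3 from 184 and 215 normalised counts in control to 525, 397 and 369 after the lesion, and fell in DG from 403, 335, 322 and 354 to between 236 and 312 (median 249). Neither pair of groups overlapped. The lesion effect was 1.10 in CA3 (edgeR adjusted p = 0.0144) and -0.45 in DG (edgeR adjusted p = 0.0223), and the difference was -1.56 (SE 0.223, 95% interval -2.02 to -1.09, edgeR adjusted p = 0.0165). Its mean count of 310 was just over the limit and fell under it without CA3 3 dp ECL 1 or DG control 1, and without CA3 control 2 the edgeR adjusted p was 0.0764. With all regional libraries of both genotypes in 1 fit the difference was -1.59 and did not pass (edgeR adjusted p = 0.38).

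**Figure D1:**
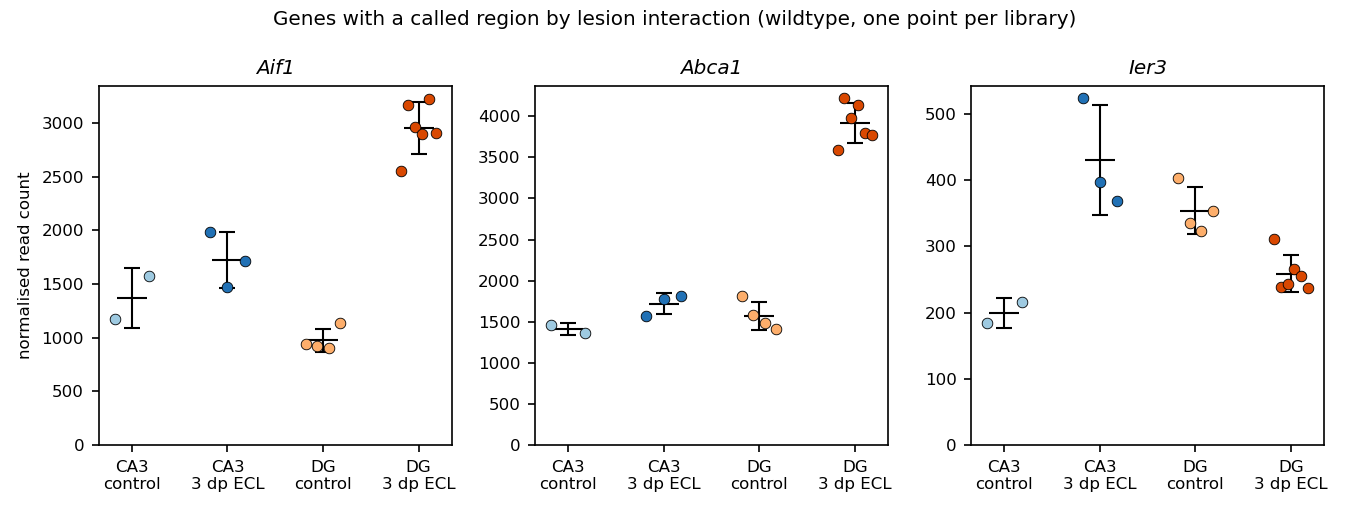
Normalised read counts (linear axis from 0) of Aif1, Abca1 and Ier3 in the 15 wildtype libraries, by area and lesion. Points are libraries and bars the mean and SD (n = 2, 3, 4 and 6 from left to right). DG 3 dp ECL libraries of Aif1 (2553 to 3226) and Abca1 (3584 to 4224) lie above all others, while Ier3 is higher in the lesioned CA3 libraries and lower in the lesioned DG libraries than in their controls.

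Summed homeostatic microglia genes, Aif1 among them, moved with Aif1. They were 1151 to 1473 CPM in DG control, 2100 to 2353 CPM in DG 3 dp ECL, 1167 and 1733 CPM in the 2 CA3 controls and 1725 to 2022 CPM in CA3 3 dp ECL. More cells of a type and more RNA per cell cannot be told apart in dissected tissue. The part of microglial content in the Aif1 difference was not tested.

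The number of genes called depended on the fit. DESeq2 called 41 genes (28 higher), limma voom with sample weights 13 (11 higher), and edgeR 22 (20 higher) once a trend with gene length was removed, and all 3 genes were among each of these. With 1 library left out the edgeR count ranged from 0 (without CA3 control 2) to 11 (without CA3 control 1 or CA3 3 dp ECL 3), it was 1 without CA3 3 dp ECL 2 or DG control 3, and 5 without DG 3 dp ECL 7. It was 2 without CA3 3 dp ECL 1, DG control 1, DG control 4 or DG 3 dp ECL 3. With DG 3 dp ECL replicate 5 put back no gene was called by edgeR, although 1240 passed an unadjusted p under 0.05. The differences then were 1.22 for Aif1, 0.91 for Abca1 and -1.31 for Ier3. With sex as a term 5 genes were called, the 3 among them. The female libraries alone hold only 1 CA3 3 dp ECL library (replicate 3). Among them the differences were 1.30, 0.95 and -1.38 for the same 3 genes. Over the genes above the limit the median 95% half-width of the difference was 0.42 on the log2 scale, before any adjustment for the number of genes. The smallest difference called was 1.03.

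The lesion effects that make up the interaction were called far more often. In the same fit, 1781 genes passed in DG (21.6% of 8248) and 635 in CA3 (7.7%). In DG 1617 rose (19.6%) and 164 fell (1.99%), and in CA3 617 rose (7.48%) and 18 fell (0.218%). Of these, 304 passed in both areas, which is 17.1% of the DG list and 47.9% of the CA3 list, and 301 of the 304 changed in the same direction. The 3 that changed in opposite directions were Ier3, Dynlrb2 and C1ql2, named after their values were seen. A further 1477 genes passed in DG and not in CA3. Among them 222 had an interaction p under 0.05 unadjusted, and 2 (Aif1 and Abca1) were called. Of the 331 genes that passed in CA3 and not in DG, 197 had an interaction p under 0.05 and none was called. With 3 interaction calls in all, passing in 1 area alone could only rarely come with a called difference. Over all genes tested 7.19% had an interaction p under 0.05 unadjusted. Both lists were chosen on lesion effects that enter the interaction. The balance of up and down depended on scaling: with the length trend removed, which moved the median lesion effect of all genes tested from -0.05 to -0.21 in DG and from -0.01 to -0.22 in CA3, 732 of 1175 calls were up in DG and 71 of 112 in CA3. The CA3 count rested on single libraries, and was 1 without CA3 control 1, 13 without CA3 3 dp ECL 3, 87 without CA3 3 dp ECL 2 and 979 without DG 3 dp ECL 4. The DG count was 967, 1176 and 1004 without DG control 2, 3 and 4 and 1017 without DG 3 dp ECL 4.

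**Figure D2:**
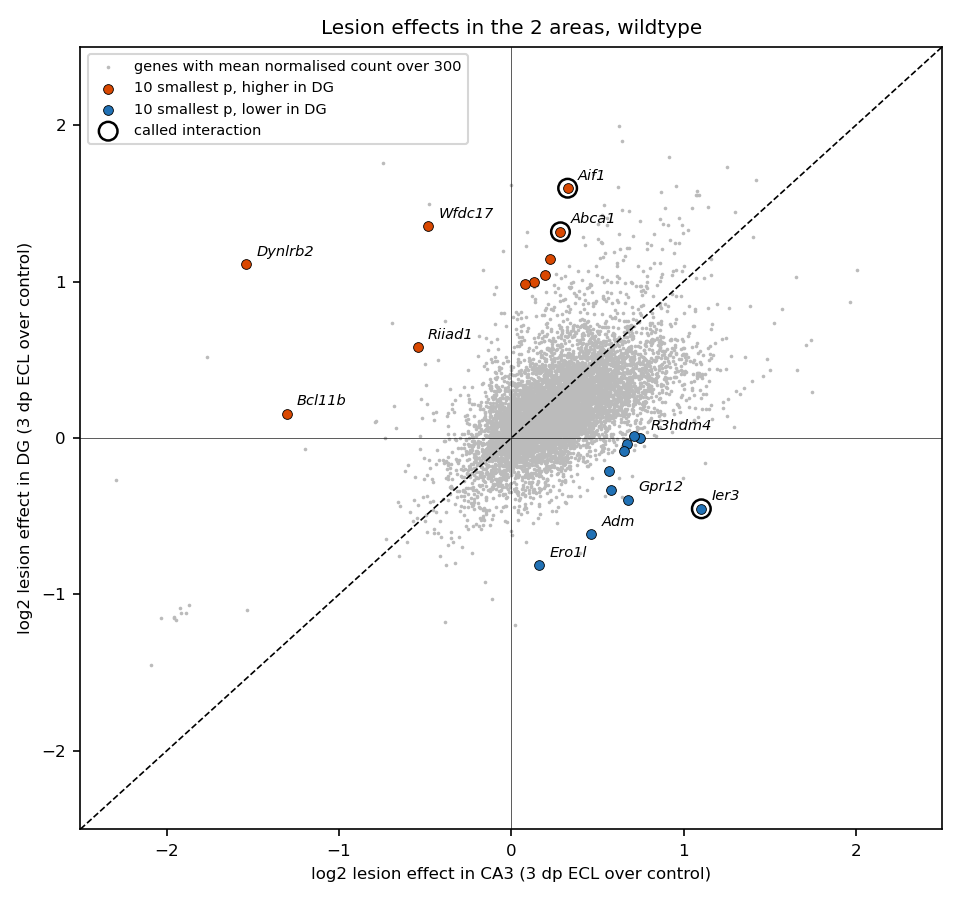
Log2 lesion effect in DG (vertical axis) against CA3 (horizontal axis) for genes over the mean limit (grey), with the 10 genes of smallest interaction p in each direction in colour and the 3 called genes ringed. The dashed line marks equal effects, and 4 genes lie outside the axes of 2.5 in either direction. Most genes lie in the upper right quadrant, Aif1 and Abca1 above the line at DG effects of 1.60 and 1.32, and Ier3 below it.

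The next genes by p with a higher lesion effect in DG did not pass the test. Dynlrb2, a dynein light chain of motile cilia, had a difference of 2.65 (SE 0.463, edgeR adjusted p = 0.0585). It stood at 525 and 1302 normalised counts in the 2 CA3 controls and at 174, 208 and 555 in CA3 3 dp ECL, against 147, 135, 164 and 106 in DG control and 213 to 405 (median 298) in DG 3 dp ECL. The 2 CA3 controls thus lay far apart, and one of them overlapped the lesioned CA3 libraries. A list of 20 genes of ependymal cells and motile cilia, written after these values were seen, summed to 224 and 419 CPM in the CA3 controls, 94.1 to 187 CPM in CA3 3 dp ECL and 94.8 to 125 CPM in all 10 DG libraries. Whether ciliated cells dissected with the CA3 controls set this difference was not tested.

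Bcl11b (Ctip2, a transcription factor of granule cells and CA1 pyramidal cells) had a difference of 1.46 (SE 0.26, edgeR adjusted p = 0.0585). It read 391 and 564 normalised counts in CA3 control and 271, 176 and 139 in CA3 3 dp ECL, a fall in CA3 of 1.30 on the log2 scale (edgeR adjusted p = 0.0144). In DG it was 1696, 1955, 1966 and 1575 in control and 1574 to 2274 (median 2054) after the lesion. Of 19 granule cell markers 16 had a difference above 0, with a median of 0.23, and 2 passed an unadjusted p under 0.05. Their median lesion effect in CA3 was -0.11, far smaller than the fall of Bcl11b. C1ql2, a synaptic organizer secreted by mossy fibers, had a difference of 2.29 (edgeR adjusted p = 0.106). It was near the floor in CA3, with 27.9 and 16.9 normalised counts in control and 6.61, 3.35 and 9.18 in CA3 3 dp ECL. Prox1 overlapped between the CA3 groups (18.4 and 13.1 CPM in control, 14.4, 11.2 and 14.1 CPM after the lesion). The summed granule cell markers of the CA3 libraries were 299 and 310 CPM in control and 250 to 253 CPM after the lesion. The part of granule cell content in the Bcl11b difference was not tested.

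The remaining 6 genes of this kind each had an edgeR adjusted p of 0.106. Wfdc17, a secreted whey acidic protein of macrophages and microglia, had a difference of 1.84, with 226, 298, 325 and 140 normalised counts in DG control and 419 to 766 in DG 3 dp ECL, and rose in DG by 1.35 (edgeR adjusted p = 0.000545). In CA3 it read 697 and 999 in control and 367, 674 and 773 after the lesion. Mpeg1, the macrophage perforin, had a difference of 0.86 and rose in DG from 710 to 822 normalised counts in control to 1391 to 1686, while the CA3 libraries overlapped (851 and 1105 in control, 955 to 1222 after the lesion). Vim, the intermediate filament of reactive astrocytes, had a difference of 0.92, with 5665 to 7278 normalised counts in DG control and 11814 to 16984 in DG 3 dp ECL, against 7078 and 8907 in CA3 control and 9020 to 9546 in CA3 3 dp ECL. For Vim, Mpeg1 and Wfdc17 the DG groups did not overlap, and of their CA3 effects (0.23, 0.13 and -0.48) none passed.

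Myo10, an unconventional myosin of filopodia, had a difference of 0.90 and a DG effect of 0.98, with 942 to 1126 normalised counts in DG control and 1767 to 2311 in DG 3 dp ECL, while CA3 held 1041 and 1474 in control and 1246 to 1435 after the lesion. P4ha3, a subunit of the collagen prolyl hydroxylase, had a difference of 0.85 from narrow groups: 182 to 198 normalised counts in DG control, 363 to 416 in DG 3 dp ECL, 279 and 281 in CA3 control and 318 to 323 in CA3 3 dp ECL. Riiad1, named for its regulatory subunit domain, had a difference of 1.12, with a rise in DG of 0.58 (edgeR adjusted p = 0.00698) and a CA3 value of -0.54 that did not pass. All 10 genes kept their sign in 15 of 15 fits with 1 library left out and under 13 of 13 other alternatives.

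The 10 genes by p with a lower lesion effect in DG were led by Ier3, and the other 9 did not pass the test (edgeR adjusted p from 0.176 to 0.288). Among them were enzymes of glycolysis and of the response to low oxygen. Gpi1, the glucose phosphate isomerase, had a difference of -0.78, with 7986 and 8863 normalised counts in CA3 control and 12524, 12186 and 12813 in CA3 3 dp ECL, against 8102 to 10189 in DG control and 6931 to 9589 in DG 3 dp ECL. Ldha, the lactate dehydrogenase subunit of lactate production, had a difference of -0.74, and read 5869 and 7409 in CA3 control, 9850, 10102 and 11420 in CA3 3 dp ECL, 6409 to 8102 in DG control and 5747 to 8117 in DG 3 dp ECL. Egln1, the prolyl hydroxylase that marks hypoxia-inducible factor for degradation, had a difference of -0.71, from 1400 and 1837 in CA3 control to 2617, 2491 and 2625 in CA3 3 dp ECL, with 1876 to 2352 and 1842 to 2340 in the DG groups. For these 3 genes the lesioned CA3 libraries lay above all other libraries and the DG groups overlapped. All 3 rose in CA3 (0.57, 0.66 and 0.67 on the log2 scale, edgeR adjusted p = 0.0345, 0.0297 and 0.0271).

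P4ha2, a collagen prolyl hydroxylase subunit, had a difference of -0.91, with 429 and 645 normalised counts in CA3 control, 743 to 894 in CA3 3 dp ECL, 473 to 604 in DG control and 352 to 488 in DG 3 dp ECL. Ero1l, the oxidase that drives disulphide formation in the endoplasmic reticulum, took the opposite route to a like difference of -0.97: it fell in DG by 0.81 on the log2 scale (edgeR adjusted p = 0.000215), from 2638 to 3758 in control to 1262 to 2053, while CA3 read 1900 and 2300 in control and 2233 to 2504 after the lesion. Adm, the vasodilator peptide adrenomedullin, also fell in DG, by 0.61 (edgeR adjusted p = 0.0145), and its difference was -1.08. Its DG groups overlapped (595 to 1056 in control, 479 to 719 after the lesion), and CA3 held 461 and 708 in control and 711 to 873 after the lesion. So the lower difference came from a rise in CA3 for some of these genes and from a fall in DG for others.

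**Figure D3:**
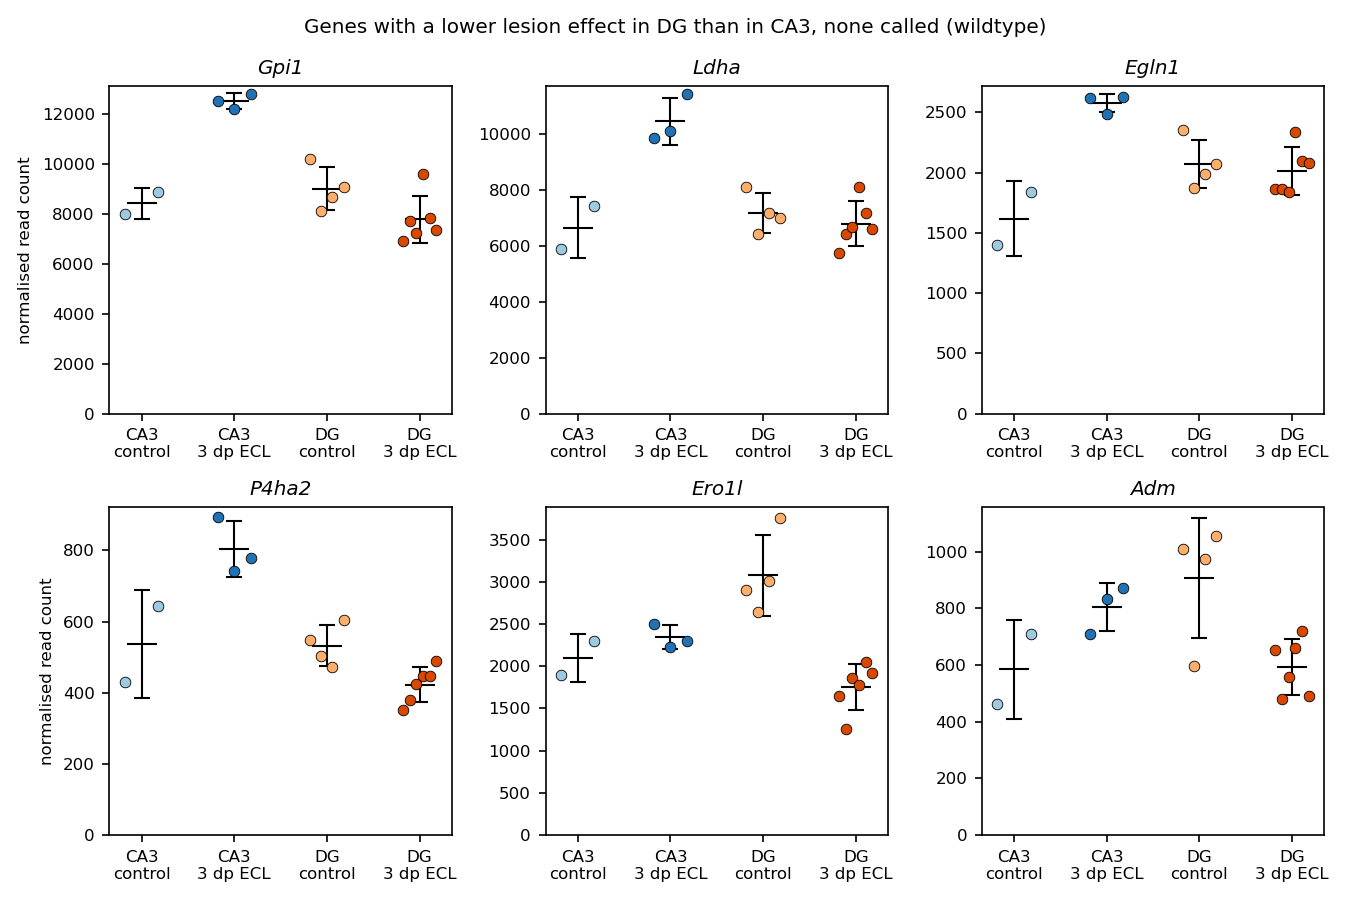
Normalised read counts (linear axes from 0) of 6 genes with a lower lesion effect in DG than in CA3, by area and lesion, in the 15 wildtype libraries. Points are libraries and bars the mean and SD. Gpi1, Ldha and Egln1 are higher in the 3 lesioned CA3 libraries, and Ero1l is lower in the 6 lesioned DG libraries (1262 to 2053) than in DG control (2638 to 3758).

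The other 3 genes lower in DG are neuronal or little described. Unc13a, the Munc13 protein that primes synaptic vesicles, had a difference of -0.70 and rose in CA3 from 415 and 483 normalised counts to 744, 720 and 745 (edgeR adjusted p = 0.0265), while DG held 444 to 499 in control and 436 to 567 after the lesion. Gpr12, an orphan receptor of neurons, had a difference of -1.07, with 355 and 407 in CA3 control, 570 to 683 in CA3 3 dp ECL, 334 to 441 in DG control and 225 to 388 in DG 3 dp ECL. R3hdm4, an R3H domain protein, had a difference of -0.75 and rose in CA3 from 761 and 925 to 1204, 1565 and 1471 (edgeR adjusted p = 0.0259), while DG held 750 to 853 in control and 739 to 907 after the lesion. RefSeq windows matched 9 of the 10 lower genes (all but Ero1l). All 9 held the GC box and 6 the hypoxia core (Egln1, Ier3, Ldha, P4ha2, R3hdm4 and Unc13a), against 4 and 2 of the 9 matched higher genes (all but Riiad1), and against 35.36% and 18.49% of 27025 genes. The 27025 genes were not held to the count limit that the named genes passed, so these shares are from an unlike background. This is a description of chosen genes.

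Most genes of microglia rose in DG and fewer passed in CA3, and the size of the difference hung on the CA3 controls. Of 20 homeostatic microglia genes, 17 rose in DG and 4 in CA3 (19.6% and 7.48% of all genes over the limit rose). These 2 shares are the background for the lists that follow as well, and only members over the limit could be called. Over the genes above the limit the median SE of the lesion effect was 0.165 in CA3 and 0.117 in DG, which limits the calls in CA3. The median lesion effect of the 20 genes was 0.94 in DG and 0.47 in CA3, beside 0.18 and 0.25 over the genes above the limit. The difference was above 0 in 18 of 20, with a median of 0.42, and 8 passed an unadjusted p under 0.05 higher and 0 lower, while Aif1 alone was called. Cx3cr1, the fractalkine receptor, had 556 to 726 normalised counts in DG control, 1129 to 1310 in DG 3 dp ECL, 669 and 934 in CA3 control and 933 to 1057 in CA3 3 dp ECL, a difference of 0.62 (unadjusted p = 0.00278, edgeR adjusted p = 0.412). Fcrls, an Fc receptor-like gene of microglia, rose in both areas, from 265 to 333 to between 815 and 1033 in DG and from 345 and 416 to 604, 666 and 943 in CA3, with a difference of 0.66 (edgeR adjusted p = 0.503). The list median was 0.72 without CA3 control 1 and 0.01 without CA3 control 2.

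The 25 genes of phagocytic microglia and cathepsins behaved alike: 22 rose in DG and 7 in CA3, the difference was above 0 in 22 with a median of 0.46 (0.59 and 0.10 without CA3 control 1 and 2), and none was called. Ctsd, the lysosomal aspartyl protease, had 3145 to 4209 normalised counts in DG control, 6021 to 8723 in DG 3 dp ECL, 3627 and 3967 in CA3 control and 4930 to 5540 in CA3 3 dp ECL, a difference of 0.52 (edgeR adjusted p = 0.555). Of 17 complement genes (11 over the limit) 10 rose in DG and 4 in CA3, with a median difference of 0.30 (0.65 and 0.02 without either CA3 control). C4b, a part of the C3 convertase, had the smallest p among them: 958 to 1098 in DG control, 1372 to 1802 in DG 3 dp ECL, 1170 and 1301 in CA3 control, and 1232 to 1327 in CA3 3 dp ECL, a difference of 0.57 (edgeR adjusted p = 0.377). C1qc, a chain of the initiating complex, rose in both areas (1.47 in DG and 1.05 in CA3), and its difference of 0.42 ran from -0.08 without CA3 control 2 to 0.80 with another library left out.

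Homeostatic astrocyte genes were called in DG and not in CA3, without a called difference. Of 21 homeostatic astrocyte genes (20 over the limit) 14 rose in DG and none passed in CA3, up or down. Over all genes above the limit 19.6% rose in DG and 7.48% in CA3. The median lesion effect of the list was 0.51 in DG and 0.28 in CA3, beside 0.18 and 0.25 over the genes above the limit. The difference was above 0 in 19 of 21, 7 passed an unadjusted p under 0.05, none was called, and the median was 0.36 (0.34 and 0.23 without CA3 control 1 and 2). Aqp4, the water channel of astrocyte endfeet, had 3271 to 3932 normalised counts in DG control, 6253 to 7868 in DG 3 dp ECL, 3673 and 3889 in CA3 control and 4663 to 4877 in CA3 3 dp ECL, a difference of 0.62 (SE 0.158, edgeR adjusted p = 0.279). Gja1, the gap junction protein connexin 43, had 3773 to 5255 in DG control, 8774 to 10502 in DG 3 dp ECL, 3448 and 5497 in CA3 control and 5537 to 6019 in CA3 3 dp ECL, a difference of 0.68 (edgeR adjusted p = 0.412). For both genes the DG groups stood apart, while the CA3 groups of Gja1 nearly met. Of 24 reactive astrocyte genes (16 over the limit) 12 rose in DG and 7 in CA3, with a median difference of 0.17 (0.33 and 0.12 without either CA3 control). Gfap, the astrocyte intermediate filament, rose in both, by 1.47 and 0.89, with a difference of 0.58 (edgeR adjusted p = 0.6).

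Myelin genes had no called difference. Of 23 genes of myelin and oligodendrocytes (15 over the limit), 6 rose in DG and none passed in CA3. Their median difference was 0.30, with 0.60 without CA3 control 1 and -0.09 without CA3 control 2, and -0.15 in female libraries only. Bcas1, which marks oligodendrocytes that are starting to myelinate, had 167 to 257 normalised counts in DG control and 339 to 665 in DG 3 dp ECL, against 319 and 480 in CA3 control and 320 to 506 in CA3 3 dp ECL, a difference of 1.24 (SE 0.313, edgeR adjusted p = 0.276). Mbp, myelin basic protein, had a DG effect of 0.24 and a CA3 effect of 0.08, and its difference of 0.16 took either sign under the alternatives.

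**Figure D4:**
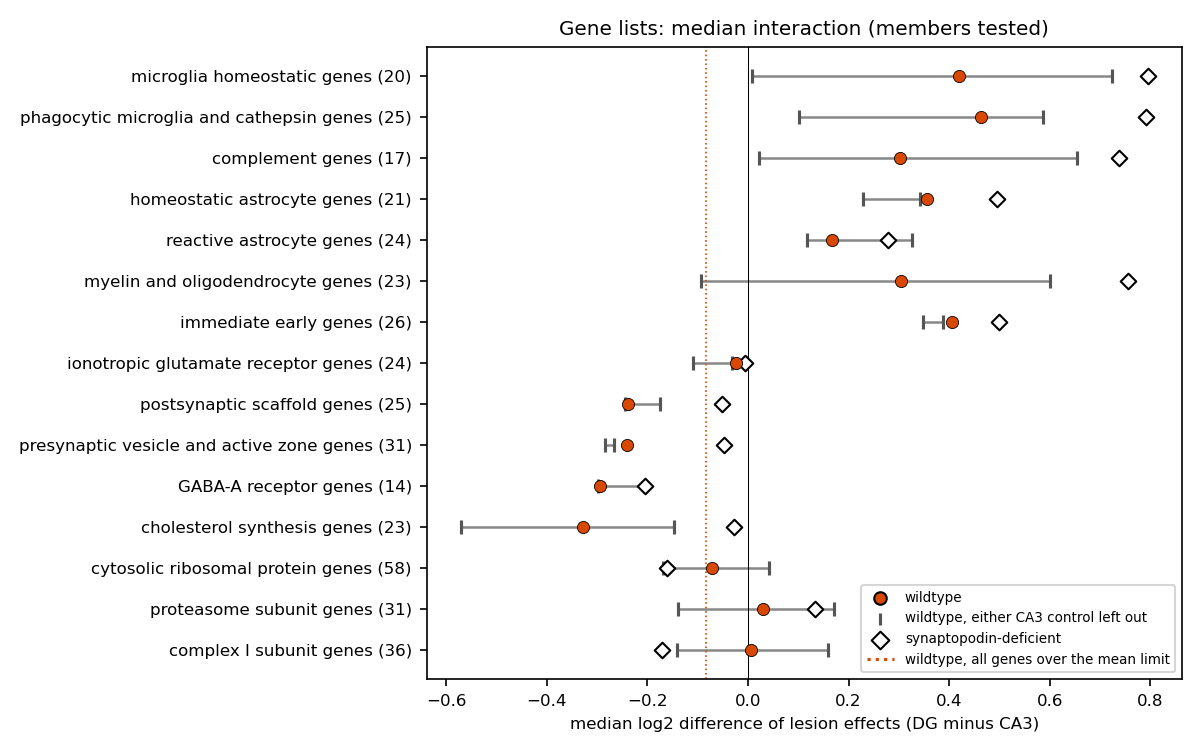
Median log2 difference of lesion effects (DG minus CA3) over the members tested of 15 gene lists, in wildtype (orange points), in wildtype without either CA3 control library (grey ticks), and in synaptopodin-deficient cultures (diamonds). The dotted line is the wildtype median of genes over the mean limit (-0.08). Glial lists and immediate early genes lie above it, as do the ribosomal, proteasome, complex I and ionotropic glutamate receptor lists. The scaffold, presynaptic, GABA-A receptor and cholesterol synthesis lists lie below it, and the ticks of the homeostatic microglia list run from 0.01 to 0.72.

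Immediate early genes, transcribed within minutes of neuronal activity, gave a difference that depended less on the CA3 controls. Of 26 tested (13 over the limit that a call needs), 7 rose and 1 (Ier3) fell in DG and 2 rose in CA3. The difference was above 0 in 21, 4 passed an unadjusted p under 0.05 higher and 1 lower, and the median was 0.41 (0.35 and 0.39 without CA3 control 1 and 2). Nr4a2, an orphan nuclear receptor, had 314 to 860 normalised counts in DG control and 566 to 2489 (median 1866) in DG 3 dp ECL, while CA3 held 762 and 1183 in control and 693 to 709 after the lesion, a difference of 1.97 (SE 0.547, edgeR adjusted p = 0.352). Fos had 547 to 868 in DG control, 938 to 3289 (median 2241) in DG 3 dp ECL, 507 and 812 in CA3 control and 731 to 1071 in CA3 3 dp ECL, a difference of 1.22 (edgeR adjusted p = 0.492). Arc, whose RNA travels to active dendrites, had a mean under the limit and read 22.2 to 35.7 in DG control and 81.6 to 356 in DG 3 dp ECL, against 117 and 154 in CA3 control and 119 to 326 in CA3 3 dp ECL. DG 3 dp ECL replicate 2 held the lowest value of the lesioned DG libraries for each of these 3 genes. Egr1 rose in DG by 1.79 (edgeR adjusted p = 0.000185), and its difference was 0.88 (95% interval -0.02 to 1.78, edgeR adjusted p = 0.703).

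Synaptic genes had medians below 0, as did the genes above the limit, of which 2884 of 8248 had a difference above 0. Of 31 presynaptic vesicle and active zone genes (23 over the limit), 4 rose in CA3 and none passed in DG. Over all genes above the limit 7.48% rose in CA3 and 19.6% in DG. The list had a median lesion effect of 0.23 in CA3 and -0.01 in DG, where the genes above the limit had medians of 0.25 and 0.18. Its difference was below 0 in 26, and 6 passed an unadjusted p under 0.05 lower and 1 higher (3.37% and 3.82% of all genes tested). The list median was -0.24 (-0.28 and -0.27 without CA3 control 1 and 2), beside -0.08 over the genes above the limit. Stx1a, the plasma membrane syntaxin of vesicle fusion, read 279 and 289 normalised counts in CA3 control and 509, 612 and 630 in CA3 3 dp ECL, against 175 to 248 in DG control and 180 to 326 in DG 3 dp ECL, a difference of -0.91 (edgeR adjusted p = 0.394). Rab3a, the vesicle GTPase, rose in CA3 from 2594 and 2505 to 5396, 6427 and 8305 (effect 1.40, edgeR adjusted p = 0.0265), with 1567 to 2767 in DG control and 1700 to 4436 in DG 3 dp ECL, a difference of -1.03 (edgeR adjusted p = 0.503). Slc17a7, the vesicular glutamate transporter, rose in CA3 by 0.81 (edgeR adjusted p = 0.0315), and its difference was -0.68 (edgeR adjusted p = 0.505). In these genes the CA3 groups did not overlap and the DG groups did, but they were named by their small interaction p. The share of all genes with such groups was not counted.

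Postsynaptic scaffold genes had a median difference of -0.24 over 25 genes (18 over the limit), 20 of the 25 below 0. In this list 1 gene rose in DG and 1 in CA3. The 14 GABA-A receptor genes were all below 0 (median -0.29), none with an unadjusted p under 0.05. The 24 ionotropic glutamate receptor genes had a median of -0.02, with 12 above 0. Grin1, the obligatory NMDA receptor subunit, rose in CA3 by 0.68 (405 and 540 normalised counts in control, 720 to 793 after the lesion, edgeR adjusted p = 0.0471), and its difference was -0.63 (edgeR adjusted p = 0.534). Synpo, which encodes the actin-binding protein of the spine apparatus, had a difference of -0.09 (95% interval -0.54 to 0.36), with 404 to 525 normalised counts in DG control, 488 to 813 in DG 3 dp ECL, 546 and 560 in CA3 control and 739 to 760 in CA3 3 dp ECL.

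Genes of cholesterol synthesis and of cholesterol efflux had medians on opposite sides of 0. Of 23 cholesterol synthesis genes (17 over the limit) all were below 0 in the difference, with a median of -0.33 (-0.15 and -0.57 without CA3 control 1 and 2). Among these 23 genes 4 had an unadjusted p under 0.05, and 3 fell and 1 rose in DG. Stard4, a cytosolic sterol carrier, fell in DG from 444 to 599 normalised counts to between 214 and 310 (effect -0.92, edgeR adjusted p = 6.6e-05), while CA3 read 425 and 553 in control and 402 to 462 after the lesion, a difference of -0.77 (edgeR adjusted p = 0.364). Of 15 cholesterol efflux genes (11 over the limit) 8 rose in DG and 1 in CA3. Their median difference was 0.16, turning to -0.10 without CA3 control 2 and -0.07 in female libraries only. Abca1 was the called member. Apoe, the main apolipoprotein of the brain, went the other way in value: it read 7282 to 22288 normalised counts in DG control, 11978 to 49225 in DG 3 dp ECL, 11433 and 13870 in CA3 control and 33237 to 45736 in CA3 3 dp ECL, with a difference of -0.62 (95% interval -1.76 to 0.51). Its DG groups overlapped and its CA3 groups did not.

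Cytosolic ribosomal proteins (58 genes, median -0.07), proteasome subunits (31, median 0.03) and complex I subunits (36, median 0.01) had no member with an unadjusted p under 0.05 in either direction. Of the proteasome subunits 19 rose in DG and 2 in CA3, with median lesion effects of 0.39 and 0.39. Of 28 actin regulators 16 rose in DG and 4 in CA3, and the median difference was -0.02. Among 12 genes that the study printed for its lesion comparisons or as its target, which were chosen on these libraries, Aif1 and Abca1 were the called ones, and Pfn1, the actin monomer carrier, had a difference of -0.93 with a wide interval (-2.03 to 0.18).

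The same interaction was measured in 23 synaptopodin-deficient (Synpo-/-, B6.129-Synpotm1Mndl/Dllr) libraries, which the wildtype comparison did not use: 7 DG control, 4 DG 3 dp ECL, 6 CA3 control and 6 CA3 3 dp ECL. There 177 genes were called of 8443 over the limit (2.1%), 139 higher (1.65%) and 38 lower (0.45%) in DG. Without DG 3 dp ECL 1 the count there was 83. Over all genes tested, 47.4% had a difference above 0. Abca1 read 1819 to 2250 normalised counts (median 2144) in DG control and 4601, 4839, 4483 and 5329 in DG 3 dp ECL, against 1527 to 1819 in CA3 control and 1646 to 2522 in CA3 3 dp ECL, a difference of 0.91 (edgeR adjusted p = 0.00118). Aif1 read 1161 to 2360 (median 1525) in DG control and 3308, 3288, 3393 and 3247 in DG 3 dp ECL, against 1405 to 2005 and 1549 to 2101 in CA3, a difference of 0.92 (edgeR adjusted p = 0.0128). For both genes the lesioned DG libraries again stood above the other 19. Ier3 did not pass there, with a difference of -0.63 (edgeR adjusted p = 0.536) and overlapping groups, 260 to 478 in CA3 control and 276 to 665 in CA3 3 dp ECL.

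Of the other 17 genes with the smallest p in wildtype, Vim (0.66), Myo10 (0.78) and Ero1l (-1.06) were called in the synaptopodin-deficient cultures (edgeR adjusted p = 0.0128, 0.0128 and 0.0147), while Bcl11b had a difference of 0.01 and Wfdc17 of 0.15. The granule cell markers had a median difference of -0.06 there. Of the 177 genes called there, 169 had the same sign in wildtype and 80 of these an unadjusted p under 0.05. Their median wildtype difference was 0.45 for the 139 higher and -0.43 for the 38 lower genes, against 0.86 and -0.76 where they were chosen. Ppp4c, a phosphatase subunit named after its values were seen, had the opposite sign in wildtype at an unadjusted p under 0.05 (-0.59, against 0.91). Tested in 1 fit over 38 libraries, the difference of the interactions between genotypes called 0 genes by edgeR (smallest adjusted p 0.546, 1864 of 30449 genes, 6.12%, at an unadjusted p under 0.05), and also 0 by DESeq2. For Aif1, Abca1 and Ier3 the unadjusted p of that test was 0.388, 0.9 and 0.056. The larger count of calls in the synaptopodin-deficient cultures thus went without a tested difference from wildtype.

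**Figure D5:**
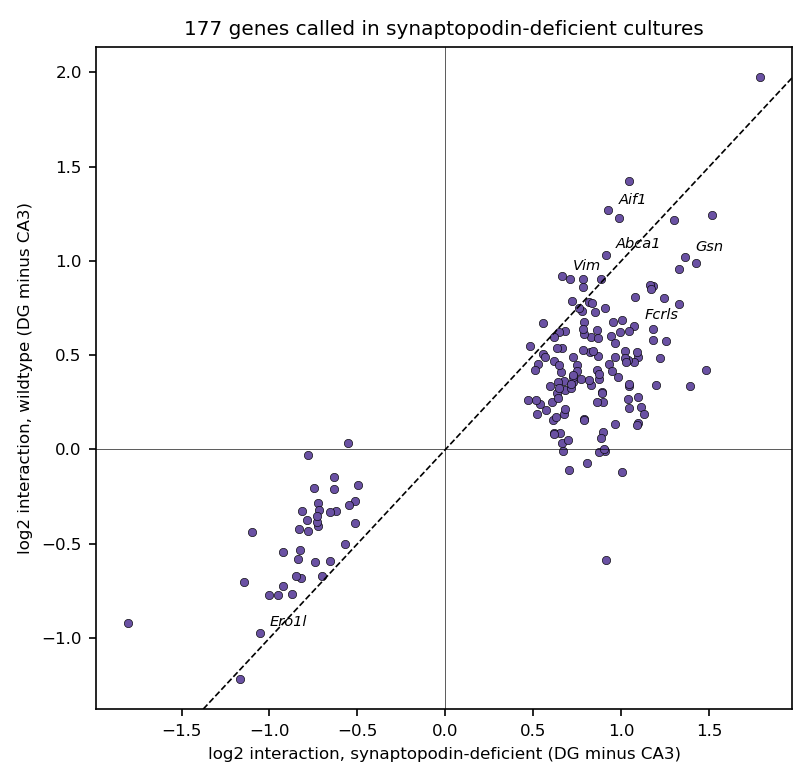
Log2 interaction (DG minus CA3 lesion effect) in wildtype against synaptopodin-deficient cultures for the 177 genes called in the latter. The dashed line marks equal values, and selected genes are named. Of the points 169 share their sign, and most lie nearer to 0 in wildtype, with medians of 0.45 and -0.43 against 0.86 and -0.76.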

How the data were processed

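The authors trimmed paired reads with cutadapt (3.5), aligned them with STAR (2.7.8a) to GRCm38 and counted them per gene, without strand, with featureCounts (2.0.1) and the GENCODE M25 annotation. They deposited raw counts, used here as the authors gave them, for 55291 gene symbols, of which 107 stand for several gene IDs. Another 24 co-immunoprecipitation and input libraries were not used. Counts were tested by edgeR (4.0.16, R 4.3.3) with TMM scaling, filterByExpr and the quasi-likelihood test over 4 group means, with Benjamini-Hochberg adjustment across every gene in the fit. Calls needed an adjusted p under 0.05 together with a mean normalised read count over 300, the limit of the study's tables. The study itself tested each lesion effect with DESeq2. DESeq2 (1.42.0), limma (3.58.1) voom, other scalings, filters and covariates, and leaving out each library were alternatives. Up to 10 genes per direction were named by smallest p over the limit, then up to 4 by p from each list, plus those the study printed. Predicted genes, pseudogenes and sex genes were not named. The members and lists were chosen with earlier results of these data known. The tests were checked on simulated data. Promoter sequences came from RefSeq (GRCm38.p6). The coordinates of genes are those of the GENCODE annotation, and intervals are 95% intervals of the fit.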

Additional observations from a re-analysis of the deposited data

Results flagged for a closer look

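The 3 called genes are listed because the test of the difference itself passed: the lesion effect in DG minus that in CA3 was 1.27 for Aif1, 1.03 for Abca1 and -1.56 for Ier3 on the log2 scale.

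In addition, named genes were checked by Dixon's criterion in the 2 DG groups, of 4 and 6 libraries. Of 158 checks, each of 1 gene in 1 group, 12 (7.59%) held a library far from the others. For independent checks chance gives about 1 in 20, but these shared their libraries and the genes were chosen on these data. DG 3 dp ECL 4 was the library in 6 of the 12. It had 9589 normalised counts of Gpi1 (6931 to 7827 in the other libraries of the group), 567 of Unc13a (436 to 475), 326 of Stx1a (180 to 221), 62712 of Gfap (42453 to 49565), 1025 of Capg (721 to 817) and 222 of Cpne9 (149 to 160). Cd52 was lower in DG 3 dp ECL 2 (1716, others 1985 to 2138), Enpp6 was higher in DG 3 dp ECL 6 (259, others 68.9 to 125) and Kcnj3 in DG 3 dp ECL 3 (2641, others 1799 to 2021). In DG control, Aif1 was higher in library 4 (1134, others 904 to 940), Egr1 in library 3 (556, others 413 to 417), and Sprr1a was lower in library 1 (6.84, others 22.3 to 24.1). Without DG 3 dp ECL 4 the difference was 1.28 for Aif1, 1.02 for Abca1 and -1.56 for Ier3, and edgeR called all 3.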

How the results depend on the processing

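The comparison rests on 2 CA3 control libraries, which limits the differences that could pass. The 20 genes named by smallest p kept their direction in all 15 fits with 1 library left out and all 13 other alternatives. The female libraries hold only 1 CA3 3 dp ECL library, so for that fit only differences are given. The count of interaction calls was 41 with DESeq2, 22 with no filter on low counts, 13 with voom and 22 with the length trend removed. It was 5 with sex as a term and 10 with the length trend and a replicate block. The count was 0 with DG 3 dp ECL replicate 5 and with a replicate block within lesion state (1538 genes at an unadjusted p under 0.05). It was 2 over all regional libraries and 2 without the 2 DG libraries high in Ttr. Leaving out 1 library gave 0 to 11. The cause of these changes was not tested.

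Replicate numbers did not pair the libraries by the criterion that every pair correlates over 0.1: over all 16 pairs of the same number the correlation of deviations ran from -0.50 to 0.57 and 6 were over 0.1, and over the 5 pairs that also shared the lesion state it ran from -0.50 to 0.27 and 1 was over 0.1. With the replicate number as a block 2 genes were called, 1 of them shared, and Aif1 (edgeR adjusted p = 0.0799) and Abca1 (edgeR adjusted p = 0.0866) were not.

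DG lesion calls were 3364 with no limit on the mean, 1175 with the length trend removed, and 967 to 1913 with 1 library left out. CA3 lesion calls were 1066 with no limit, 979 with DESeq2, 394 with RLE scaling, 1383 with no filter, 112 with the length trend removed, 37 with a replicate block, 1973 with sex as a term, 0 with DG 3 dp ECL replicate 5 (5486 at an unadjusted p under 0.05), 309 over all regional libraries, 306 with the 2 groups alone, 280 without the 2 DG libraries high in Ttr, and 1 to 979 with 1 library left out. Interaction calls in synaptopodin-deficient cultures were 284 with no limit, 427 with DESeq2, 295 with voom, 301 with the length trend removed (206 up), 326 with a replicate block within lesion state, 305 over all regional libraries and 83 to 260 with 1 library left out.

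Among named genes, the difference changed sign for Mbp with a replicate block within lesion state (-0.040) and in female libraries (-0.36), for Ptgs2 with DESeq2 (-0.0006978), no filter (-0.031), sex as a term (-0.087) and all regional libraries (-0.010), and for Synpo in female libraries (0.020) and with the length trend and the block (0.0030). With 1 library left out it ran from -0.078 to 0.80 for C1qc, -0.29 to 0.50 for Mbp and -0.26 to 0.44 for Ptgs2.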

Other observations

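Genes of hypoxia and glycolysis were looked at as a list written after the values of Gpi1, Ldha and Egln1 were seen, so that its counts are a description. Without the 6 members named by p, 21 of 22 had a difference below 0, 15 of them at an unadjusted p under 0.05, with a median of -0.49. Over all genes tested 3.37% were lower at that p, and 2884 of the 8248 genes over the limit had a difference above 0. The 22 come from the same list and are no separate check. The median lesion effect of these 22 was 0.42 in CA3 and -0.05 in DG. Over all 28 members the sum was 6190 and 6695 CPM in the CA3 controls and 8426 to 8982 CPM in CA3 3 dp ECL, with no overlap, against 6204 to 7711 CPM in DG control and 5813 to 7263 CPM in DG 3 dp ECL. The list median was -0.50 without CA3 control 1 and -0.84 without CA3 control 2. In synaptopodin-deficient cultures 19 of the 22 were below 0, with a median of -0.33. The shared sign does not mean a shared rise in CA3. There the CA3 medians of Gpi1, Ldha and Egln1 were 13835, 9547 and 2291 normalised counts in control. After the lesion they were 12266, 9674 and 2340. In DG the medians of these 3 genes went from 12112, 8905 and 2839 to 8312, 7643 and 2092.

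Sprr1a, a small proline-rich protein known from injured neurons, had the largest difference among the genes named from the list of axon growth genes, at 3.54 (edgeR adjusted p = 0.254), and a mean count under the limit. It read 6.84, 23.3, 22.3 and 24.1 normalised counts in DG control and 80.5 to 566 (median 277) in DG 3 dp ECL, with no overlap. The CA3 libraries held 22.3 and 29.8 in control and 13.2, 66.1 and 23.7 after the lesion.

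Choroid plexus genes, another list written after the values were seen, had a median difference of 1.70, which was -0.12 without DG 3 dp ECL 1 and 3. Ttr, the thyroid hormone carrier of the choroid plexus, stood at 2472 and 6179 CPM in these 2 libraries.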
